A study of Mus musculus with 15 samples.

Results

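The 24626 peaks described here are all the regions that the authors listed as enriched in RNA precipitated with an antibody against N6-methyladenosine (m6A) over the matching input RNA, in mouse podocytes carrying a knockdown virus against Mettl3. They make up 24626 of the 74604 peaks in the 3 lists of the study. The 5149 of them that share no base on the same strand with a peak of the control list (20.9%) are called peaks with no control peak, and the other 19477 are called peaks with a control peak. The cells are MPC5, an immortalised line of mouse podocytes, the epithelial cells that wrap the capillaries of the kidney's filter. The study has 3 conditions: MPC5 cells that received the sh-METTL3 virus in standard medium (called sh-METTL3), MPC5 cells that received the same virus and then glucose labelled as 25 µmol/L for 72 hours (called sh-METTL3 with glucose), and MPC5 cells labelled WT in standard medium (called control). Each condition has 2 input, 2 IP and 1 further sample of no stated kind, and the processed files hold 1 peak list and 1 RNA column for each. The control cells are not said to have received a virus, so the virus and the knockdown cannot be told apart.

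m6A is the commonest internal modification of messenger RNA. It is written in the nucleus by the METTL3-METTL14 enzyme with partners such as WTAP, VIRMA, ZC3H13 and RBM15, removed by FTO and ALKBH5, and read by proteins of the YTH family, and it is known to gather near stop codons and in 3'UTRs, in the letters RRACH, of which GGAC is the core most often used. Antibodies against m6A also bind m6Am, a related mark next to the 5' cap that is written by PCIF1. A peak marks a stretch of RNA fragments that was enriched. It does not give the methylated base or the share of molecules that carry the mark.

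The 3 RNA libraries held 53655982 counts in sh-METTL3, 52807701 in sh-METTL3 with glucose and 54282720 in control. Mettl3 itself stood at 2.42 FPKM in sh-METTL3, 2.49 in sh-METTL3 with glucose and 2.34 in control, and the sh-METTL3 list holds no peak in it, so the lower level that the label names was not seen in the RNA and the condition is called sh-METTL3 by its label alone. Of 11 podocyte markers, 8 reached 1 FPKM in sh-METTL3, with summed levels of 204 FPKM in sh-METTL3, 217 in sh-METTL3 with glucose and 96.9 in control, while Lmx1b, a transcription factor of podocytes, was at 0 or not listed. Endothelial markers summed to 0.575 FPKM in sh-METTL3, 1.29 in sh-METTL3 with glucose and 0.873 in control, with Cdh5, Emcn, Pecam1 and Tek at 0 or not listed in sh-METTL3. Tubular markers summed to 172 FPKM in sh-METTL3, 87.9 in sh-METTL3 with glucose and 59.0 in control, with 4 of 7 reaching 1 FPKM in sh-METTL3 and Slc34a1 and Umod at 0 or not listed. Their part in the peak lists was not tested. With 1 list and 1 RNA library for each condition there is no spread between replicates, no test was made, and every difference compares these lists or libraries and not the conditions.

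Of the 39 sh-METTL3 peaks with a fold enrichment, IP over input, of at least 100, 16 lay in 5'UTRs and 18 in 3'UTRs. The first 50 bases of RefSeq transcripts could be read from RefSeq promoter windows (build GRCm38.p6), and 1715 windows of 1451 genes lay wholly inside a sh-METTL3 5'UTR peak. The 5 stretches of 30 bases shown here, each from the first 50 bases of a RefSeq transcript of its gene, whose start need not be the gene start in the RNA table, come from the peaks the results below turn on. They are written 5' to 3' on the transcribed strand, and the capitals mark each GGAC. Only stretches that hold a GGAC were drawn, so they do not show how often strong peaks carry one. Senp3 (chr11:69682055-69682084, minus strand) and Syncrip (chr9:88482368-88482397, minus strand) are among the 10 genes with the highest fold enrichment, Fads2 (chr19:10101474-10101503, minus strand) led its gene list, and Trp53i11 (chr2:93187562-93187591, plus strand) and Pkm (chr9:59657231-59657260, plus strand) carry 5'UTR peaks with no control peak.
Senp3: gGGACtgccacacgcggcaagccaggcgac
Syncrip: gaaggaaGGACgaaggctgagaGGACaggg
Fads2: gagGGACcgtcggtgttgcgagccgcgggc
Trp53i11: ggcactagaggagGGACcagtgcgggccgc
Pkm: tagtcacgtccgcGGACtcctcgtggtccg

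GGAC stood in 21.9% of the 1715 windows inside a sh-METTL3 5'UTR peak, in 19.9% of 8643 windows of genes with at least 1 FPKM that were not inside one, and in 18.9% of all 32851 windows. On the opposite strand it stood in 18.2% of the windows inside a peak, 21.5% of those outside and 17.4% of all. The longer GGACT, which contains GGAC, stood in 4.84% of the windows inside a peak, 5.23% of those outside and 5.76% of all. On the opposite strand GGACT stood in 6.12% of the windows inside a peak, 5.10% of those outside and 4.87% of all. Windows inside 5'UTR peaks with no control peak held GGAC in 19.7% of 436, and those inside peaks with a control peak in 22.6% of 1279. The first transcribed base was A in 31.4% of the windows inside a sh-METTL3 5'UTR peak, against 27.0% of the windows of genes with at least 1 FPKM outside one and 34.4% of all windows. These shares lie near each other, and a match describes letters, not a methylated site.

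The sh-METTL3 peaks fell in 11571 genes, with 1 peak in 5104 genes (44.1%), 2 peaks in 3224 genes and 3 or more in 3243 genes (28.0%). Among the 11470 genes with at least 1 FPKM in the sh-METTL3 library, 8352 (72.8%) carried a peak and 2761 (24.1%) carried a peak with no control peak. FPKM counts fragments per kilobase of transcript and scales them to the depth of the library, and so allows levels to be compared between genes. By the authors' annotation, 51.2% of the peaks lay in 3'UTRs, 20.9% in exons outside the UTRs (called coding exons), 15.3% in 5'UTRs, 8.54% in exons of noncoding RNAs and 3.59% in introns. The centre of a 3'UTR peak lay at a median of 94.2% of the gene's length from its start, and the centre of a 5'UTR peak at 5.96%. Coding-exon peaks were centred at a median of 64.3% and noncoding peaks at 50.0%. Of the 5'UTR peaks, 52.7% began at the first base of the gene.

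The fold enrichment of a peak, IP over input, and its adjusted p are the authors' own values and serve here only to describe and rank peaks within the sh-METTL3 list. Fold enrichment ranged between 1.10 and 1150, with a median of 5.51 and quartiles of 3.12 and 9.36. The authors' adjusted p was under 0.05 for 84.2% of the peaks. The median width was 539 bp, measured over the genome from the first to the last base, so that introns inside a peak count, and 2997 peaks (12.2%) spanned more than 5000 bp.

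Zxdb, described further on, and other genes with near-identical copies were left out of the rankings. Among the other genes with at least 1 FPKM, the highest fold enrichment at adjusted p under 0.05 was 1150 in the 5'UTR of Rrbp1, a ribosome-binding protein of the endoplasmic reticulum. This peak spans chr2:143981627-144011203. Dhx9, an RNA helicase, followed with 854 in its 3'UTR, and Fbxl19, an F-box protein that binds CpG islands, with 485 in its 3'UTR. Capns1, the small regulatory subunit of calpains, reached 404 and Mapk3, the ERK1 kinase, reached 382, both in the 5'UTR. Zfp326, a zinc finger protein that links transcript elongation with splicing, had 329 in the 3'UTR. Senp3, a protease that removes SUMO, had 328 in the 5'UTR, in the stretch printed above. Isg15, a ubiquitin-like modifier induced by interferon, had 324 in the 3'UTR. Fam98b, a part of the tRNA ligase complex, had 278 in the 3'UTR, and Syncrip, an RNA-binding protein of the hnRNP family, had 268 in the 5'UTR. All 10 of these peaks had both a control peak and a sh-METTL3 with glucose peak, 5 lay in 3'UTRs and 5 in 5'UTRs, and the genes' levels ran between 3.41 FPKM and 102 FPKM.

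The RNA of these 10 genes differed in both directions between the libraries. Dhx9 stood at 23.7 FPKM in sh-METTL3, 16.7 in sh-METTL3 with glucose and 9.77 in control. Isg15 stood at 28.4 FPKM in sh-METTL3, 136 in sh-METTL3 with glucose and 127 in control. They were the only 2 of the 10 past a 2-fold difference on the log2(FPKM + 1) scale, Dhx9 at 1.20 and Isg15 at -2.12 for sh-METTL3 over control, and the other 8 lay between -0.72 and 0.72. Isg15 thus had a peak of fold enrichment 324 at a level well under that of the control library.

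Most of the 10 genes with the most sh-METTL3 peaks encode very large proteins. Dst, a cytoskeletal linker of the spectraplakin family, held 28 peaks with fold enrichments between 1.92 and 10.7, of which 22 lay in coding exons. Its relative Macf1 held 14. The zinc finger transcription factors Zfhx3, Zfhx4 and Zfhx2 held 18, 15 and 13 peaks. Stard9, a kinesin of the centrosome, held 17, Brca2, which acts in DNA repair by homologous recombination, held 15, and the centrosomal proteins Cep295 and Cep350 held 12 each. Galnt2l held 15 intronic peaks, but 13 of them also lay over another gene on the same strand, so their gene is uncertain. Over the 10 genes the list holds 159 peaks, 96 of them in coding exons, 131 of them with a sh-METTL3 with glucose peak. The median fold enrichment of the 159 peaks was 5.38, near that of the whole list.

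The 5149 peaks with no control peak (20.9% of the list, 95% Wilson interval 20.4 to 21.4) fell in 4056 genes. Of these genes, 2839 (70.0%) had a control peak elsewhere, and 1470 of the 5149 peaks (28.5%) were in genes with no control peak at all. In the opposite direction, 3574 of the 22498 control peaks (15.9%) had no sh-METTL3 peak, and 8705 of the 27480 sh-METTL3 with glucose peaks (31.7%) had no control peak. The nearest control peak on the strand lay within 200 bp for 679 of the 5149 (13.2%), and the median distance was 4435 bp. On the other side of the rule, 167 of the 19477 peaks with a control peak shared fewer than 10 bp with it.

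By place, 42.4% of the peaks with no control peak lay in 3'UTRs, against 53.5% of those with a control peak. Coding exons held 20.2% against 21.1%, 5'UTRs 18.3% against 14.5%, exons of noncoding RNAs 10.5% against 8.02%, and introns 7.90% against 2.44%. The lower 3'UTR share and higher intron share were not particular to this list. Control peaks with no sh-METTL3 peak lay in 3'UTRs in 43.4% and in introns in 9.32% of cases, against 52.6% and 3.75% of all control peaks. In sh-METTL3 with glucose, peaks with no control peak gave 40.4% and 10.9%. Their 5'UTR shares were 14.9% in control and 21.6% in sh-METTL3 with glucose. Read by place, a control peak was missing for 46.1% of the 883 intronic peaks, 25.7% of the noncoding peaks, 25.1% of the 5'UTR peaks, 20.2% of the coding peaks and 17.3% of the 3'UTR peaks. Of the intronic peaks, 173 (19.6%) also lay over another gene on the strand, against 5.30% of the 3'UTR peaks. The 3'UTR peaks with no control peak were centred at a median of 95.9% of the gene, against 93.8% for those with one. The 5'UTR peaks with no control peak were centred at 2.55%, against 7.60% for those with one, and 58.2% of them began at the gene's first base, against 50.9%.

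**Figure D1:**
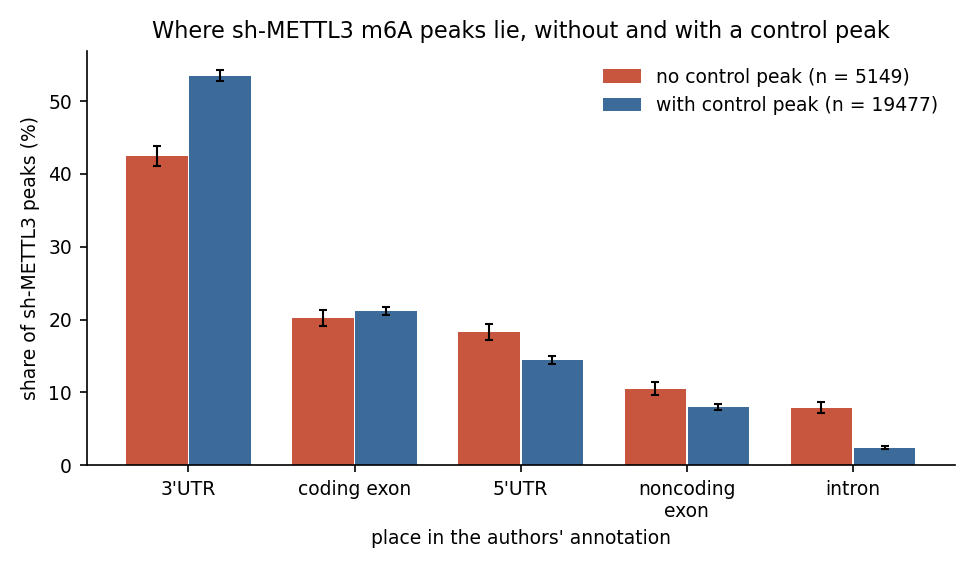
Bars give the share in percent of sh-METTL3 peaks at each place of the authors' annotation, for the 5149 peaks with no control peak (left bar of each pair) and the 19477 with one (right bar), with 95% Wilson intervals that cover counting error only. The left bar is lower in 3'UTRs (42.4% against 53.5%) and higher in introns (7.90% against 2.44%).

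Peaks with no control peak were weaker and narrower than the others within the same list. Their median fold enrichment was 3.38 against 6.24, their median width 211 bp against 630 bp, and 54.1% of them had an adjusted p under 0.05, against 92.2%. The control list showed the same. Its peaks with no sh-METTL3 peak had medians of 4.31 and 181 bp, against 5.99 and 508 bp for all control peaks. An adjusted p under 0.05 was met by 50.4% of those peaks, against 84.3% of all control peaks. Within the sh-METTL3 list again, the 2 kinds of peak also differed at stricter limits. A fold enrichment of at least 4 with an adjusted p under 0.001 was met by 270 of the 5149 and by 11085 of the 19477. For peaks with no control peak against those with one, the median fold enrichment was 2.34 against 5.36 in coding exons, 2.93 against 6.24 in 3'UTRs and 3.86 against 6.24 in 5'UTRs. It was 4.68 against 7.28 in introns and 6.24 against 7.54 in noncoding exons. At each of the 5 places the peaks with no control peak had the lower median.

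The share with no control peak fell with the strength of the authors' adjusted p. It was 60.8% among the 3885 peaks with an adjusted p of 0.05 or more, 24.6% where the -log10 adjusted p was between 2 and 5, and 0.287% where it was 100 or more. By width it was 51.1% under 150 bp and 9.31% between 500 and 1000 bp. By RNA level it was 46.9% of the 1284 peaks in genes under 0.1 FPKM, 23.1% between 0.1 and 1 FPKM, and between 16.8% and 19.9% in all higher classes. A missing control peak was thus commonest among weak and short peaks and in genes with almost no RNA. A short peak has fewer bases that can overlap a control peak, so the overlap rule itself favours short peaks in this set. How much of the contrasts in width and strength, here and in the medians above, comes from the rule was not tested.

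**Figure D2:**
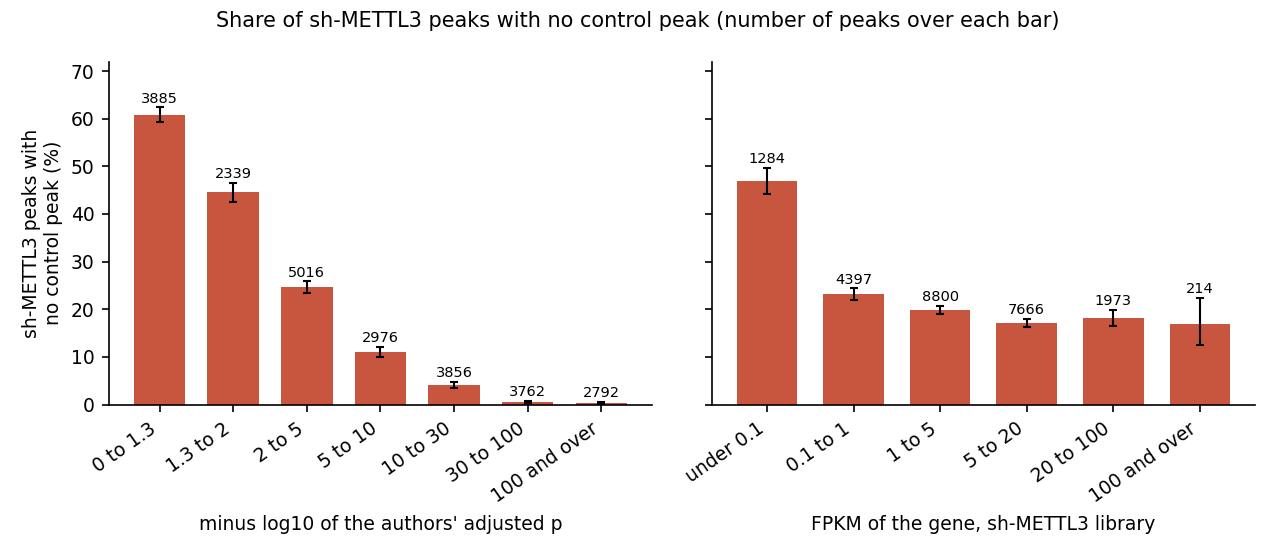
Bars give the share in percent of sh-METTL3 peaks with no control peak, by the -log10 of the authors' adjusted p (left) and by the FPKM of the gene in the sh-METTL3 library (right), with 95% Wilson intervals and the number of peaks above each bar. The share is 60.8% in the weakest class and 0.287% in the strongest, and 46.9% in genes under 0.1 FPKM.

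The genes that carry a peak with no control peak had a median of 2.80 FPKM in the sh-METTL3 library, counting each gene once, against 3.91 FPKM for the genes that carry a peak with a control peak. Genes with both kinds of peak stand in both sets. In the control library the medians were 2.11 FPKM for the genes with a peak with no control peak and 2.75 FPKM for the genes with a peak with one. Counted peak by peak, the gene of a peak with no control peak had a median of 4.72 FPKM for intronic, 4.54 for 5'UTR, 2.81 for coding, 2.61 for 3'UTR and 0.212 for noncoding peaks. Fold enrichment was lower in genes of higher RNA level, up to the class of 20 to 100 FPKM for peaks with no control peak. For peaks with no control peak against those with one, its median was 8.32 against 8.45 under 0.1 FPKM, 5.20 against 8.32 between 0.1 and 1, and 2.93 against 6.24 between 1 and 5. It was 2.26 against 5.26 between 5 and 20 FPKM, 1.86 against 4.11 between 20 and 100, and 2.29 against 3.00 at 100 or more. The gap between the 2 kinds of peak was smallest in genes with almost no RNA.

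**Figure D3:**
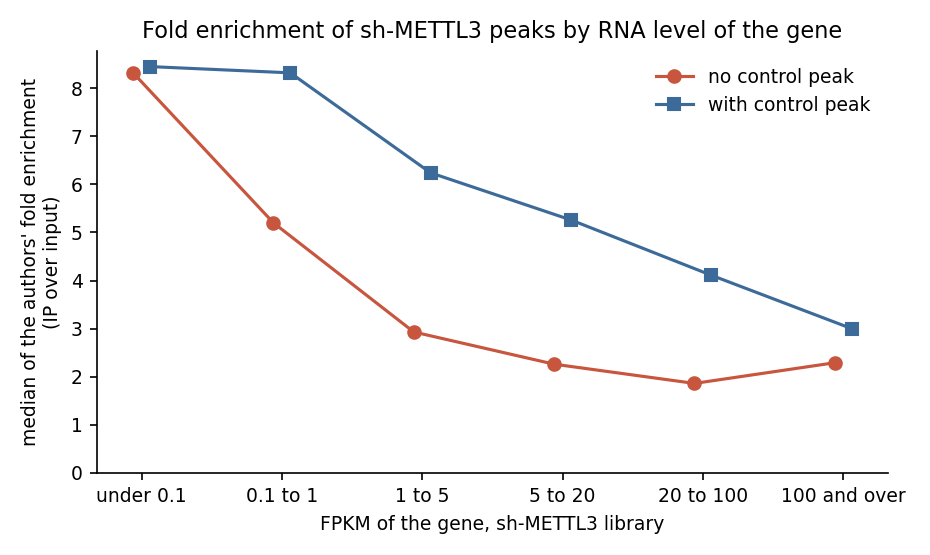
Points give the median of the authors' fold enrichment (IP over input) of sh-METTL3 peaks in 6 classes of the gene's FPKM in the sh-METTL3 library, for peaks with no control peak (circles) and with one (squares). The squares fall through all 6 classes and the circles through the first 5, and the circles lie at 2.93 against 6.24 between 1 and 5 FPKM but at 8.32 against 8.45 under 0.1 FPKM.

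Many fold enrichments took the same few values. The value 7.28 was given to 908 peaks, 8.32 to 700 and 4.16 to 618, and all 3 are whole multiples of 1.04. Such multiples made up 29.4% of all peaks, 41.6% of those with no control peak and 26.1% of those with one. Their share was 75.5% in genes under 0.1 FPKM and 12.9% in genes with at least 20 FPKM. The S1pr1 3'UTR peak has one of these values, as do the 5'UTR peaks of Pkm and Fth1 and 9 of the 10 peaks with no control peak ranked by fold enrichment in the next paragraphs, the exception being the Fosl2 peak at 21.9. A value was counted as a multiple where it equalled one at 3 significant digits. The step itself was rounded to 1.04, so a large value such as the 21.9 of Fosl2 can miss a multiple by rounding alone. At fold enrichments of at least 100 the count says little, since 38 of 39 peaks matched there.

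The sh-METTL3 with glucose list, which comes from other libraries with the same virus, held a peak over 2926 of the 5149 peaks with no control peak (56.8%, 55.5 to 58.2), against 17517 of the 19477 with one (89.9%). In all, 71.1% of the sh-METTL3 peaks were in both other lists and 2223 (9.03%) were in neither. Among peaks with no control peak the share with a peak in sh-METTL3 with glucose was 37.4% in genes under 0.1 FPKM, 56.6% between 1 and 5 FPKM and 76.5% between 20 and 100 FPKM. It was 41.3% where the adjusted p was 0.05 or more and 93.0% where the -log10 adjusted p lay between 10 and 30.

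Among peaks with no control peak in genes with at least 1 FPKM, and with genes of near-identical copies such as Zxdb and Rpl17 again left out, the highest fold enrichment was 39.5, in the 3'UTR of Prpf4, a protein of the U4/U6 small nuclear ribonucleoprotein that acts in splicing. This peak, chr4:62424991-62425289, lay beside a 3'UTR peak of fold enrichment 12.8 that did have a control peak. Prpf4 stood at 6.25 FPKM in sh-METTL3, 6.28 in sh-METTL3 with glucose and 4.21 in control. Trp53i11, a gene induced by p53, followed with 31.2 in the 5'UTR (chr2:93187548-93189099, over the stretch printed above). It had no control peak anywhere and stood at 1.81 FPKM in sh-METTL3, 3.62 in sh-METTL3 with glucose and 2.55 in control. Lysmd4 had 25.0 in the 5'UTR and Fbxo31, the substrate-binding part of a ubiquitin ligase, 23.9 in the 3'UTR.

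Fosl2, a subunit of the AP-1 transcription factor, had an intronic peak with no control peak at 21.9 (chr5:32136910-32137060) and a further one at 5.46 in its 5'UTR. Its RNA was 11.3 FPKM in sh-METTL3, 8.64 in sh-METTL3 with glucose and 2.67 in control, a log2 difference of 1.75 between sh-METTL3 and control. Ncam1, a neural cell adhesion molecule, reached 20.8 in the 3'UTR. Itpk1, an inositol phosphate kinase, held 3 peaks with no control peak, at 19.8 and 7.28 in introns and 14.6 in a coding exon. The Itpk1 peak of 7.28 had an adjusted p of 0.364 in the authors' list. Cenps, a kinetochore protein, had 19.8 in the 3'UTR. Trio, an exchange factor for small GTPases, had 18.7 in a coding exon of 61 bp width, and Tbcb, a cofactor of tubulin folding, 18.7 in the 5'UTR. Of these 10 genes, 8 had a control peak elsewhere and 2, Trp53i11 and Tbcb, had none. A peak in sh-METTL3 with glucose covered 7 of the 10 peaks, and Prpf4, Fbxo31 and Tbcb lacked one. On the log2(FPKM + 1) scale Fosl2 was the only 1 of the 10 past a 2-fold RNA difference from control. Lysmd4, at 1.39 FPKM in sh-METTL3 and 0.530 in control, differed more than 2-fold in plain FPKM but reached 0.64 on that scale.

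Counting peaks at any adjusted p, the genes with the most peaks without a control peak were Abcb6 and Eppk1 with 6 each and Cntrl, Dst and Emilin2 with 5 each. In Abcb6, a porphyrin transporter, the 6 peaks lie in overlapping pairs at 0.868 FPKM, so they cover fewer separate places. Eppk1, a repeat-rich cytolinker called epiplakin, had fold enrichments up to 15.6 for these peaks at 0.102 FPKM in sh-METTL3, 0.625 in sh-METTL3 with glucose and 0.0425 in control, and none of its 10 peaks had a sh-METTL3 with glucose peak. Emilin2, a glycoprotein of the extracellular matrix, was at 0.0331 FPKM (16 counts) in sh-METTL3 and at 0 in control. Only its peak of 13.5 had an adjusted p under 0.05 in the authors' list (0.00355), and the others lay between 0.119 and 0.541. None of its 5 peaks had a glucose peak either. Cntrl, a protein of the maturing centriole, was at 2.81 FPKM in sh-METTL3, and all 6 of its peaks had one.

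Some genes of high RNA level also carried a peak with no control peak. Pkm, the pyruvate kinase of glycolysis, had a 5'UTR peak of 3.12 (adjusted p = 0.0204 in the authors' list) over the stretch printed above, at 347 FPKM in sh-METTL3, 369 in sh-METTL3 with glucose and 358 in control. Fth1, the heavy chain of the iron store ferritin, had one of 8.32 in its 5'UTR (chr19:9980598-9982676) at 288 FPKM in sh-METTL3, 378 in sh-METTL3 with glucose and 337 in control. Serpinh1, the collagen chaperone HSP47, had one of 3.21 in its 3'UTR at 269 FPKM in sh-METTL3, 258 in sh-METTL3 with glucose and 513 in control. Serpinh1 had control peaks at other places, and Pkm and Fth1 had none.

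The best-supported peaks with no control peak were picked out after their values were seen. Only 24 of the 5149 had a -log10 adjusted p over 30 in the authors' list. They fell in 20 genes with a median of 86.8 FPKM peak by peak, 12 of them had a fold enrichment under 2, and 22 had a sh-METTL3 with glucose peak. Zxdb, a zinc finger gene of the X chromosome, stood apart with a 3'UTR peak of 876 (chrX:94724569-94727527) at 2.14 FPKM in sh-METTL3, 2.01 in sh-METTL3 with glucose and 1.45 in control. It was the only peak with no control peak among the 39 of the list with a fold enrichment of at least 100. Its near-identical neighbour Zxda had a sh-METTL3 peak of 179 with a control peak, so the assignment of reads between the 2 copies is uncertain.

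Rpl17 and Rpl10a, proteins of the large ribosomal subunit, had 3'UTR peaks of 24.5 and 5.39 with no control peak. Rpl17 stood at 111 FPKM in sh-METTL3, 209 in sh-METTL3 with glucose and 316 in control. Many ribosomal protein genes have processed copies in the genome, so these too are uncertain. Atp6v0c, the proteolipid subunit of the vacuolar proton pump, had 6.61 in its 3'UTR at 30.7 FPKM in sh-METTL3, 33.6 in sh-METTL3 with glucose and 38.1 in control. Myh9, the nonmuscle myosin heavy chain in which human variants cause kidney disease, held 4 coding peaks of between 1.39 and 1.64 at 86.8 FPKM in sh-METTL3, 109 in sh-METTL3 with glucose and 46.1 in control. Tpm1, a tropomyosin, held a coding peak of 2.03 and a 3'UTR peak of 1.59 at 107 FPKM in sh-METTL3, 109 in sh-METTL3 with glucose and 50.1 in control. Rad21, a cohesin subunit, had 2.15 at 143 FPKM in sh-METTL3, 71.4 in sh-METTL3 with glucose and 52.5 in control. Fmnl3, an actin-nucleating formin, had a coding peak of 5.82 without a glucose peak at 32.0 FPKM in sh-METTL3, 17.7 in sh-METTL3 with glucose and 6.80 in control.

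In the authors' deposited table of differential peaks, sh-METTL3 over control, 1542 of the 24626 sh-METTL3 peaks (6.26%) overlapped an entry that was higher in sh-METTL3 at adjusted p under 0.05, and 562 (2.28%) one that was lower. Among peaks with no control peak, 257 of 5149 (4.99%) overlapped a higher entry of the authors' deposited table and 1 (0.0194%) a lower one. Peaks with a control peak overlapped higher entries of the authors' deposited table in 1285 of 19477 cases (6.60%) and lower ones in 561 (2.88%). The direction for peaks with no control peak follows from how they were chosen, since the table rests on the same libraries as the lists. Zxdb had a log2 fold change of 8.05 in the authors' deposited table (adjusted p = 1e-179), Prr13, chosen after its value was seen, 5.20, Sdhb 1.51 and Atp6v0c 1.73, all at adjusted p under 0.05, while the Prpf4 entry of 1.28 in the authors' deposited table has an adjusted p of 0.198. Lower entries of the authors' deposited table at adjusted p under 0.05 included Gclm at -1.41, Fosl1 at -0.753 and Wtap at -0.64, all at peaks with a control peak. Gclm and Wtap were chosen after their values were seen. Any entry of the authors' deposited table was overlapped by 428 of the peaks with no control peak (8.31%), against 3207 of those with one (16.5%).

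RNA levels were compared as log2 of (FPKM + 1), sh-METTL3 over control, in the 11591 genes with a mean of at least 1 FPKM over the 3 libraries, and a gene was called higher or lower past 1 on that scale. Of all 11591 genes, 11.4% were higher in sh-METTL3 and 8.01% were lower, and the median difference was 0.10. Among the 2825 tested genes with a peak with no control peak, 325 (11.5%) stood higher and 127 (4.50%) lower, and the median was 0.20. Genes whose sh-METTL3 peaks all had a control peak gave 837 higher (15.1%) and 247 lower (4.45%) of 5548. The 2266 genes with a peak with no control peak beside a control peak elsewhere gave 307 higher (13.5%) and 74 lower (3.27%), while the 565 genes with sh-METTL3 peaks but no control peak at all gave 20 higher (3.54%) and 53 lower (9.38%). Genes with no sh-METTL3 peak gave 162 higher (5.03%) and 554 lower (17.2%) of 3218.

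The balance of higher and lower calls depended on the scaling. With median-of-ratios scaling of the libraries, which puts the median of all genes at -0.03 in place of 0.10, the share of called genes that were higher was 45.0% in place of 58.8% over all genes. It was 63.0% in place of 75.7% for all genes with a sh-METTL3 peak, 55.4% in place of 71.9% for genes with a peak with no control peak, and 13.5% in place of 27.4% for genes with no control peak at all. In the gene lists described below, median-of-ratios scaling left 1 gene higher and 1 lower of the 13 m6A writers tested, and 1 higher and 1 lower of 20 ferroptosis promoters, and in the other lists it did not change which direction held more calls. Peaks were called over input RNA of the same cells, so peaks and RNA levels are not independent measurements.

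S1pr1, Smad2 and Smad3 stand with Mettl3 among the genes always reported here. S1pr1, a receptor for sphingosine 1-phosphate, had peaks of 7.80 in its 5'UTR (chr3:115712105-115713090) and 7.28 in its 3'UTR (chr3:115711478-115711896), both with a control peak and a sh-METTL3 with glucose peak. Its RNA was 0.335 FPKM in sh-METTL3, 1.02 in sh-METTL3 with glucose and 1.78 in control, and the 3'UTR site was listed with a log2 fold change of -1.89 in the authors' deposited table, with an adjusted p of 0.116 there, which does not pass 0.05. Smad3, a transcription factor activated by TGF-beta receptors, held 3 peaks, with 8.72 and 7.47 at 2 neighbouring 3'UTR places, all 3 with a control peak. In the authors' deposited table the place of 8.72 had a log2 fold change of -0.14 (adjusted p = 0.0324), which passes 0.05. The place of 7.47 had -0.125 there (adjusted p = 0.193), which does not. Smad3 RNA was 24.2 FPKM in sh-METTL3, 19.3 in sh-METTL3 with glucose and 5.14 in control. Smad2, its close relative, held a 3'UTR peak of 4.90 and a 5'UTR peak of 1.66, both with a control peak, at 5.77 FPKM in sh-METTL3, 4.66 in sh-METTL3 with glucose and 3.60 in control. The Smad2 3'UTR place had a log2 fold change of -0.363 in the authors' deposited table (adjusted p = 0.106), which does not pass 0.05.

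**Figure D4:**
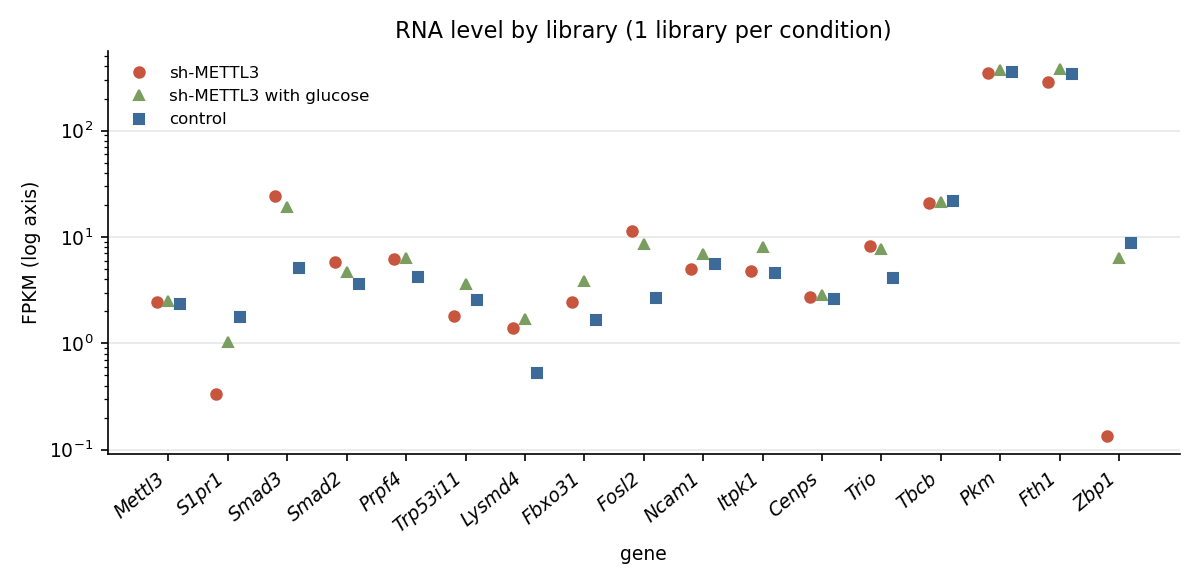
Points give the FPKM (log axis) of named genes in the sh-METTL3 (circles), sh-METTL3 with glucose (triangles) and control (squares) libraries, 1 library per condition and so without error bars. S1pr1 lies at 0.335 against 1.78 FPKM and Smad3 at 24.2 against 5.14 FPKM in sh-METTL3 against control, while Mettl3 lies at 2.42 against 2.34 FPKM.

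Shares of genes with a peak in the lists that follow are to be read beside the 72.8% of all genes with at least 1 FPKM that had one, and the 24.1% with a peak that had no control peak. These shares count genes, and a gene with many peaks counts once. Of 12 m6A writer genes with at least 1 FPKM in sh-METTL3, 10 had a peak and 7 had one with no control peak. Counted by peak over the whole list, 8 of 37 writer peaks (21.6%) had no control peak, near the 20.9% of all sh-METTL3 peaks. Zc3h13, which anchors the writer complex in the nucleus, had a coding peak of 28.1, and Rbm15b and Rbm15, the RNA-binding adaptors of the complex, had 27.3 in the 3'UTR and 18.4 in a coding exon. All 3 had a control peak. Mettl14, the partner of METTL3, had a 3'UTR peak of 11.4 with no control peak (adjusted p = 0.012 in the authors' list) at 3.71 FPKM in both sh-METTL3 and control. This peak, chr3:123371258-123371318, lay close beside a 3'UTR peak of the control list, chr3:123371348-123371527, with a fold enrichment of 1.79. Of 13 writer genes tested for RNA, 2 were higher and 1 lower, with Rbm15b at 8.65 against 2.77 FPKM and Rbm15 at 3.45 against 9.05 FPKM in sh-METTL3 against control. Of 13 reader and eraser genes 12 had a peak and 4 one with no control peak, among them the eraser Alkbh5, with 2 such 3'UTR peaks of 1.61, and the reader Hnrnpc with a coding peak of 1.70. Prrc2a, a reader, had 36.0 in a coding exon, Igf2bp1 14.6 and Ythdf3 11.8 in their 3'UTRs, and 2 of 13 genes of the list were higher in RNA and none lower.

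In TGF-beta and Smad signalling 24 of 25 genes had a peak and 8 one with no control peak. Counted by peak over the whole list, 10 of 62 (16.1%) had no control peak. The inhibitory Smads led the list, Smad6 with 71.8 and Smad7 with 57.9, followed by Smad5 of the BMP branch with 31.2, all in the 5'UTR and with a control peak. The ligand Tgfb1 had a second 5'UTR peak of 10.4 with no control peak beside one of 10.5 that had one, and the receptor Acvr2a had 6.24 in the 5'UTR. RNA was higher for 6 and lower for 2 of 25 genes. In sphingosine 1-phosphate and ceramide metabolism 14 of 15 genes had a peak and 7 one with no control peak. By peak, 11 of the 36 of the whole list (30.6%) had no control peak. The ceramide synthase Cers5 had 15.6 in the 5'UTR with a control peak, at 24.2 FPKM in sh-METTL3 and 22.6 in control. The desaturase Degs1 had 13.0 in a coding exon with a control peak. The ceramide synthase Cers2 had 5.55 in the 5'UTR with no control peak. The receptor S1pr5 had a 3'UTR peak of 14.6 with no control peak although it was listed at 0 FPKM in sh-METTL3. RNA was higher for 5 and lower for 1 of 17 genes.

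Among podocyte genes 12 of 13 had a peak and 7 one with no control peak, with RNA higher for 6 and lower for 1 of 13. By peak, 13 of the 41 of the whole list (31.7%) had no control peak. Kirrel, which encodes the slit diaphragm protein Neph1, had 47.0 in its 5'UTR at 45.1 FPKM in sh-METTL3 and 8.61 in control, and Vegfa, the endothelial growth factor that podocytes secrete, 25.0 in an intron at 6.65 FPKM in sh-METTL3 and 20.5 in control. Podxl, the sialomucin podocalyxin, had 2 3'UTR peaks with no control peak, at 5.38 and 1.39, and Foxc2, a transcription factor, one of 11.4 at 0.0949 FPKM. Nphs1, which encodes nephrin, had no peak in the list at 1.37 FPKM in sh-METTL3 and 3.35 in control, and Wt1 had 2 peaks with no control peak, neither with an adjusted p under 0.05. Nphs1 and Wt1 were named after their values were seen.

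Genes that restrain ferroptosis, an iron-dependent cell death by lipid peroxidation, had a peak in 20 of 23 cases and one with no control peak in 6. The acyltransferases Mboat2 and Mboat1 had 11.0 and 10.3 in their 3'UTRs with a control peak. The adaptor Fadd, placed in this list when it was drawn up, had 10.4 in its 5'UTR with no control peak. Whether Fadd restrains ferroptosis was not tested. Of the genes that promote it, 14 of 19 had a peak and 3 one with no control peak. The desaturase Fads2 led with 120 in its 5'UTR (chr19:10101297-10101746), over the stretch printed above, with a control peak and RNA of 126 FPKM in sh-METTL3, 73.2 in sh-METTL3 with glucose and 59.1 in control. Hmox1, the haem-degrading oxygenase, had 23.9 and Keap1, the inhibitor of Nrf2, 20, both in the 3'UTR. Vdac3, a channel of the outer mitochondrial membrane, and Ncoa4, the receptor for ferritin breakdown, had peaks with no control peak of 2.55 and 2.05. RNA was higher for 6 and lower for 2 of 24 suppressors, and higher for 4 and lower for 1 of 19 promoters.

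Among the interferon-stimulated genes RNA was lower for 18 and higher for 1 of 27, with a median of -1.54, and 22 of 24 genes with at least 1 FPKM had a peak and 8 one with no control peak. Trim25, a ubiquitin ligase of RNA sensing, had 210 and Bst2, the virus-tethering protein tetherin, 85.8 in their 3'UTRs, both with a control peak. Bst2 stood at 106 FPKM in sh-METTL3, 284 in sh-METTL3 with glucose and 505 in control. Zbp1, a sensor of left-handed nucleic acid, had 2 peaks and no control peak, with 25.0 in its 3'UTR (chr2:173206612-173207210, adjusted p = 1.58e-27 in the authors' list) at 0.135 FPKM in sh-METTL3, 6.40 in sh-METTL3 with glucose and 8.80 in control. This peak with no control peak thus stood in a gene whose RNA was far lower than in the control library. Xaf1, an interferon-induced promoter of apoptosis, had 13.5 in its 3'UTR with no control peak at 2.48 FPKM in sh-METTL3, 10.4 in sh-METTL3 with glucose and 10.2 in control.

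In the NF-kB and inflammatory list RNA was lower for 11 and higher for 1 of 16, with a median of -2.09, and 11 of 14 genes had a peak and 2 one with no control peak. The cytokine Lif had 32.3 and the inhibitors Socs3 and Tnfaip3 19.3 and 11.4, all in the 3'UTR with a control peak. Lcn2, a secreted siderophore-binding protein, had 2 peaks with no control peak, 9.36 and 3.75, at 0.137 FPKM in sh-METTL3, 61.9 in sh-METTL3 with glucose and 40.3 in control. In the authors' list the Lcn2 peak of 9.36 had an adjusted p of 0.119 and that of 3.75 one of 0.0182. Nfkbia, the inhibitor of NF-kB, had 2.17 in its 3'UTR and 1.99 in its 5'UTR and no control peak, at 22.1 FPKM in sh-METTL3, 55.0 in sh-METTL3 with glucose and 208 in control. Immediate early genes, which respond first to growth signals, had a peak in 24 of 24 cases and one with no control peak in 3, with RNA higher for 12 and lower for 1 of 24. Jun had 55.5 and Myc 19.0 in their 3'UTRs, both with a control peak. Fosl1 had a coding peak of 1.45 with no control peak.

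Sterol and fatty acid genes had a peak in 20 of 24 cases and one with no control peak in 7, with RNA higher for 12 and lower for none of 24. Acaca, which makes malonyl-CoA, had 63.5 in its 3'UTR with a control peak, at 8.20 FPKM in sh-METTL3, 5.03 in sh-METTL3 with glucose and 1.74 in control. The cholesterol enzymes Lss and Fdft1 had 3'UTR peaks with no control peak of 6.76 and 2.73, neither with a glucose peak. Chromatin regulators had a peak in 23 of 23 cases and one with no control peak in 11, with RNA higher for 12 and lower for none of 23, or for 8 and none with median-of-ratios scaling. The acetyltransferase Ep300 had 73.9 in its 5'UTR at 11.1 FPKM in sh-METTL3, 7.20 in sh-METTL3 with glucose and 1.98 in control, and the methyltransferase Setd1a 67.3 in a coding exon. Of the 127 peaks of this list 75 lay in coding exons, and 19 (15.0%) had no control peak. The remodeller Chd7, at 0.200 FPKM, had 9.36 with no control peak.

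Of the Notch and Wnt genes 14 of 14 had a peak and 5 one with no control peak, with RNA higher for 5 and lower for 2 of 16. The Wnt receptor Fzd2 had 20.8 and the ligase Rnf43, which removes such receptors, 18.7 (at 0.417 FPKM), both with a control peak, and the receptor Notch3 and the ligand Jag2 had 4.42 and 3.84 with none. Tcf7l2, a Wnt transcription factor, had 16.6. Of the Hox genes 10 of 10 had a peak and 3 one with no control peak, with RNA higher for 3 and lower for none of 10. Hoxb4 had 101, Hoxc9 21.9 and Hoxd8 13.5 in their 3'UTRs with a control peak, and Hoxb3 5.90 with none.

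In the ribosomal protein, respiratory chain and long noncoding lists the share of genes with a peak was below the 72.8% of all genes, a difference that was not tested. Of 30 ribosomal protein genes, all with at least 22.0 FPKM in sh-METTL3, 9 had a peak and 2 one with no control peak, with RNA lower for 26 and higher for none of 30. Respiratory chain genes had a peak in 13 of 25 cases and one with no control peak in 6, with RNA lower for 2 and higher for none of 25, or for 4 and none with median-of-ratios scaling. Ndufs4, a subunit of complex I, had 20.8 in its 5'UTR, Uqcrb, of complex III, 5.20 and Ndufb8, of complex I, 4.68, all with a control peak. Sdhb, of complex II, had a coding peak of 2.84 and Ndufs1, of complex I, a 3'UTR peak of 2.43 with none. Of 9 long noncoding RNAs 4 had a peak and none had one without a control peak, with RNA lower for 3 of 8 and higher for none. Xist, the RNA of X inactivation, had 29.1, Kcnq1ot1, an imprinted antisense RNA at 0.0547 FPKM, 21.9 and Malat1, a nuclear RNA, 10.4.

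Lists of other cell types held few members above 1 FPKM. All 4 tubular genes with at least 1 FPKM had a peak, none without a control peak, and RNA was higher for 4 of 4, with Aqp1, a water channel, at 36.9 FPKM in sh-METTL3, 3.42 in sh-METTL3 with glucose and 2.29 in control. Lrp2, the endocytic receptor megalin, had a coding peak of 8.60 and Pax8, a transcription factor of the renal tubule, a 3'UTR peak of 5.62. Of 3 leukocyte genes 2 had a peak and 1, Cd14, one with no control peak, and RNA was higher for 1 of 3. Csf1r, the receptor for macrophage growth factor, had 13.5. Of 2 mesangial genes 1, Pdgfrb, had a peak, of 12.0, and RNA was higher for 1 of 2. No endothelial gene reached 1 FPKM, although Ehd3, at 0.293 FPKM, had a 5'UTR peak of 10.4 with no control peak.

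**Figure D5:**
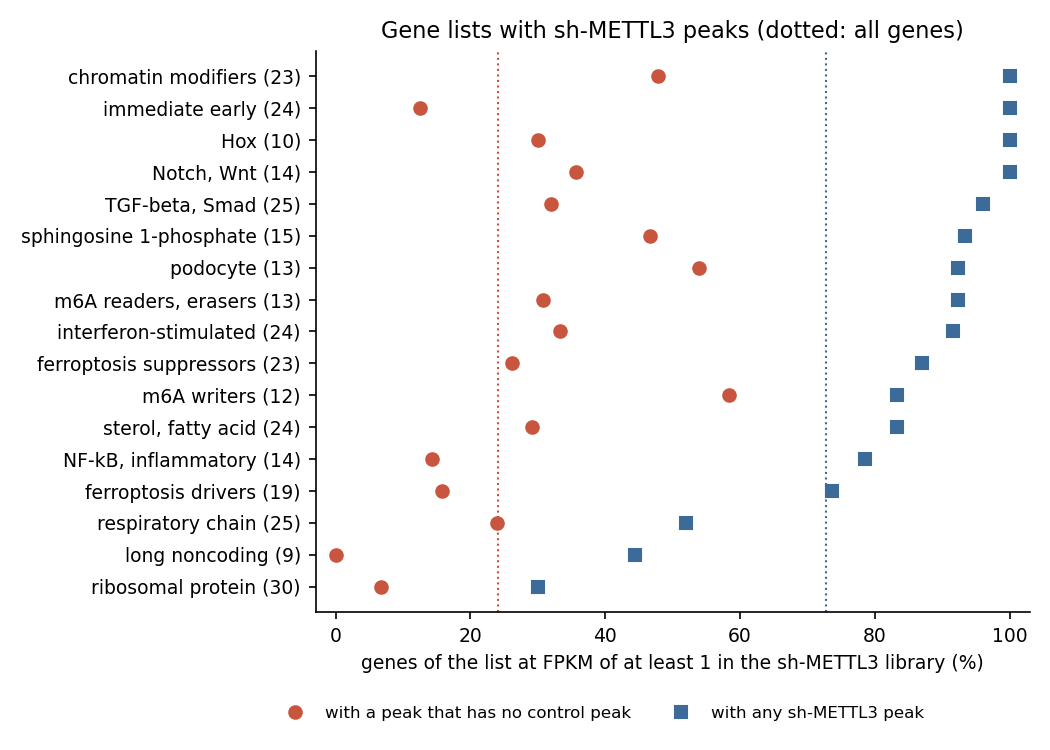
For each gene list with at least 5 genes at 1 FPKM or more (number in brackets), squares give the percent of those genes with any sh-METTL3 peak and circles the percent with a peak that has no control peak, with dotted lines at 72.8% and 24.1% for all genes of that level. Ribosomal protein genes lie lowest for any peak, at 9 of 30, and m6A writers highest for peaks with no control peak, at 7 of 12. Counted by peak, 21.6% of the writer peaks had no control peak, against 20.9% of all sh-METTL3 peaks.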

How the data were processed

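MPC5 poly(A) RNA was broken into fragments, those bound by an m6A antibody were recovered, and paired-end libraries that keep the strand were made, per the labels' protocols. HOMER 4.10, edgeR 4.1, StringTie 2.1.2, HISAT2 2.0.4 and fastp 0.19.4 appear in the submitters' processing notes with no role given, beside a human build, although the cells are mouse. The peak caller and how the 2 IP and 2 input samples were combined are not given in the sources used here. In the coordinates, 10914 of 10917 genes with a unique symbol overlapped the RefSeq GRCm38.p6 gene of that symbol.

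Each peak list gives the authors' fold enrichment, a ratio of IP over input, and a score that is the log10 of their p-value and of their adjusted p-value, per the file headers. The deposited RNA table gives counts and FPKM for 1 library per condition, of between 52807701 and 54282720 counts. Without replicates only the counting error of these levels could be known, and their spread between samples was not measured. The authors' deposited table of differential peaks, 3518 entries, gives log2 fold changes and p-values.

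Peaks were compared by an overlap of at least 1 bp on the same strand, from first to last base. Starts, counted from 0 in the files, were raised by 1. RNA ratios used log2(FPKM + 1), a mean of at least 1 FPKM and a threshold of 1. Intervals are 95% Wilson intervals of counting error and treat peaks as independent, although 1382 sh-METTL3 peaks overlap another sh-METTL3 peak. The steps were tested on simulated data. Alternatives were other overlaps, stricter peaks, 1 peak per gene, another pseudocount, FPKM filters and median-of-ratios scaling. Python 3.11.15 with pandas 2.3.3, numpy 2.4.6, scipy 1.17.1 and matplotlib 3.10.9 was used.

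The members, the 21 gene lists and the tests were chosen with earlier results of these data known. The genes named are Mettl3, S1pr1, Smad2 and Smad3; the 10 with the highest fold enrichment at adjusted p under 0.05 and at least 1 FPKM, over all peaks and over those with no control peak; the 10 with the most peaks and the 5 with the most without a control peak; the 5 of highest FPKM with such a peak; and from each list up to 3 by their best peak and 2 by their best peak with no control peak. Predicted genes, pseudogenes and genes with near-identical copies were passed over where the list of such names held them. Some genes that this rule names are not reported here.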

Additional observations from a re-analysis of the deposited data

How the results depend on the processing

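Of 78 alternative values, 52 moved beyond the limit set for them and 26 did not. The limit was the main value's 95% interval, or 1.5 times a count. No paired analysis was possible because each condition has 1 peak list and 1 RNA column, and leaving out a replicate or keeping exons within peaks apart was not run for the same reason and for want of exon blocks in the lists. The share of sh-METTL3 peaks with no control peak, 20.9%, was 20.3% on either strand, 34.1% when at least 50% of the peak had to be covered, 18.2% when a control peak within 200 bp counted, 19.1% in genes with at least 1 FPKM in both libraries, and 25.6% among peaks of at most 5000 bp, a setting chosen after seeing the data. It was 17.5% at adjusted p under 0.05 in both lists, 13.4% at that limit in the sh-METTL3 list alone, and 2.38% at a fold enrichment of at least 4 and adjusted p under 0.001. What the control libraries could not show at their depth cannot be told apart from what was absent.

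At adjusted p under 0.05, with the stricter limit and with 1 peak per gene, 3'UTRs held 53.4%, 57.1% and 56.9% of all sh-METTL3 peaks, 5'UTRs 14.6%, 13.8% and 14.4%, coding exons 21.7%, 20.3% and 13.0%, introns 2.38%, 1.52% and 3.19%, and noncoding exons 7.48%, 6.84% and 12.4%. Among peaks with no control peak, adjusted p under 0.05 gave 45.0% in 3'UTRs, 23.1% in coding exons, 5.24% in introns and 8.80% in noncoding exons. The stricter limit gave 20% in 5'UTRs, 14.4% in coding exons and 14.4% in noncoding exons, and 1 peak per gene gave 20.1%, 17.8% and 11.5% at these places. The median fold enrichment was 2.86 for peaks with no control peak and 5.75 for all peaks at adjusted p under 0.05, and 2.54 and 4.86 in genes with at least 1 FPKM. The median FPKM of genes with a peak with no control peak was 3.75 at adjusted p under 0.05. The share of peaks with no control peak that had a sh-METTL3 with glucose peak was 47.4% when at least 50% had to be covered and 70.0% at adjusted p under 0.05.

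With a pseudocount of 0.1, RNA was higher in 543 genes with a peak with no control peak, 47 with no control peak at all, 1801 with any sh-METTL3 peak and 2065 of all genes, and lower in 209 genes with a peak with no control peak and 83 with no control peak at all. At a mean of at least 5 FPKM higher genes numbered 152 with a peak with no control peak, 13 with no control peak at all, 585 with any sh-METTL3 peak and 663 of all. Median-of-ratios scaling gave 196 lower genes with a peak with no control peak, and 12 higher genes with no control peak at all. The cause of these shifts was not tested, except that a higher filter tests fewer genes.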

Other observations

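Some strong peaks of the sh-METTL3 list stand in genes with almost no RNA. Of 1284 peaks in genes under 0.1 FPKM, 120 had an adjusted p under 1e-10 in the authors' list, 64 of them in noncoding exons and 36 in 3'UTRs. Of the 120, 4 had no control peak and 117 had a sh-METTL3 with glucose peak. At 15 of the 120 places another gene with at least 1 FPKM lay on the same strand, as for Il4i1, whose peak also covers Nup62, a nuclear pore protein at 32.1 FPKM. Other places had no such gene. Slc15a3, a peptide transporter, had a 3'UTR peak of fold enrichment 23.5 with 0 counts in the sh-METTL3 library and 23 in the control library. Mmp24, a membrane metalloproteinase, had one of 15.2 with 0 counts in the sh-METTL3 library and 5 in the control library. These genes were chosen after their values were seen.

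Hairpins of microRNAs lay wholly inside 25 sh-METTL3 peaks of at most 1500 bp, of which 22 also had a sh-METTL3 with glucose peak. No control peak was listed for 2 of them, a peak over Mir194-1, annotated to Mir215, with a fold enrichment of 15.6, and an intronic peak of Grik3 over Mir692-2, with 2.98. Dgcr8, whose product recognises microRNA hairpins, had a 5'UTR peak of 3.97 over the hairpin Mir1306. A peak here marks fragments of the host transcript or its neighbours, and whether the hairpin itself was methylated was not measured.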
